A study of Homo sapiens with 6 samples.

Results

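The genes of the translation initiation, elongation and termination factors were examined in SK-BR-3, an established human breast cancer cell line that carries extra copies of the HER2 gene. A gene was a member if the count table listed it as protein coding and its symbol began with EIF or EEF followed by a digit, with the EIF2AK kinases left out, or if it was ETF1, GSPT1, ABCE1 or PELO. This rule gave 70 of the 30327 genes in the table. It used no measured value itself, but the members were chosen with earlier results of these data known. ETF1, which the rule takes by name, is among the genes that the study lists as down-regulated. EIF1AY and GSPT2 were not analysed here.

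Messenger RNA was sequenced from 6 libraries. Of these, 3 came from cells given a nontargeting siRNA (si_NC, genotype given as control) and 3 from cells given siRNA against GRB2 (si_GRB2), an adaptor protein that links HER2 and other receptor kinases to RAS. The descriptions name si_GRB2, while the titles and genotype of the same libraries name GRB2 overexpression, so the level of GRB2 was examined first. The labels give no time after transfection and do not say whether the libraries of a group came from separate cultures, so p-values measure the spread between these libraries, which may be technical. The study's methods print a single siRNA against GRB2, and the labels do not say whether the sequenced cells received it. Loss of GRB2 and any action of the siRNA on further transcripts cannot be told apart.

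Translation starts when the initiator tRNA, carried by eIF2, joins the small ribosomal subunit with eIF3, eIF1, eIF1A and eIF5. The eIF4 factors bind the cap of the mRNA and unwind its leader, and eIF5B then brings in the large subunit. eEF1A delivers each aminoacyl-tRNA, eEF2 moves the ribosome along the mRNA, and eIF5A helps at stretches that are slow to translate. At a stop codon eRF1 (ETF1) and eRF3 (GSPT1) release the protein, and ABCE1 splits the ribosome for another round. In HER2-driven breast cancer cells the eIF4E step is known as a target of RAS and mTOR signalling.

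The libraries held 24810378 to 28532480 reads on genes. Libraries of the same group differed by more than sampling noise, with a chi-square per degree of freedom of 2.06 to 4.55 between pairs. The luminal and HER2 markers were present in every library. ERBB2 had 263 to 347 FPKM and KRT8, KRT18, KRT19, EPCAM and GRB7 were all detected, whereas ESR1 and PGR were at most 0.09 and 0.01 FPKM and the fibroblast gene COL1A1 was at most 0.46 FPKM. GRB2 had 124, 130 and 126 CPM (counts scaled to library size with TMM factors) in si_NC and 27.8, 28.2 and 29.6 CPM in si_GRB2. Its log2 fold change was −2.15 (edgeR adjusted p = 3.87e-15), so the libraries described as si_GRB2 had less GRB2 mRNA than the controls, not more.

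Most translation factor genes differed little between si_GRB2 and si_NC, and a few differed clearly. The termination factor ETF1, the eIF2 alpha subunit EIF2S1 and the eIF4E inhibitor EIF4EBP1 were lower in si_GRB2, and the eIF3 subunit EIF3F was higher. Of the 70 members, 67 had enough reads to test. A gene was called when its adjusted p was under 0.05 by edgeR's quasi-likelihood test, after Benjamini-Hochberg adjustment over the 15801 genes tested. The call was met by 19 members (28.4%), against 30.6% of all genes tested and 35.85% of the 12779 protein-coding genes tested. The share is near the first background and below the second, which is the closer match because the rule takes protein-coding genes only. Of the 19 members, 6 were higher (8.96%, against 15.2% of all genes and 17.87% of protein-coding genes). The other 13 were lower (19.4%, against 15.5% and 17.97%). With library size alone as the scaling, 14 members were called higher and 8 lower, so the split between directions depends on the scaling. In limma on log2(FPKM + 1), 4 members were called, which were ETF1, EIF2S1, EIF4EBP1 and EIF3F. The groups did not overlap for 30 members (44.8%), against 42.3% of all genes and 47.66% of protein-coding genes. The study's own limits are a change of more than 1.5-fold in either direction and p under 0.01, and with the adjusted p in that place ETF1 alone passed both. It made up 1.49% of the members, against 2.52% of all genes and 2.86% of protein-coding genes tested.

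The changes of the members were small in size. The log2 fold changes lay between −0.62 and 0.38, and their median was −0.015, against 0.0019 over all genes tested. The median size of the change without its sign was 0.067 log2 units, against 0.14 over all genes and 0.13 over protein-coding genes. This measure also holds sampling error, which is larger in genes with few reads, and the genes were not matched on reads. A log2 fold change within 0.1 of zero was found for 44 members (65.7%), against 37.5% of all genes and 39.8% of protein-coding genes. Of the 48 members that were not called, 43 had a 95% interval inside plus or minus 0.2 log2 units, so at this depth a larger change was outside the interval for them. The members together took 2.44% ± 0.018 (SD, n = 3) of the reads in si_NC and 2.46% ± 0.012 in si_GRB2. Because each library is scaled to its own total, fewer cells and less RNA per cell cannot be told apart in these bulk samples.

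**Figure D1:**
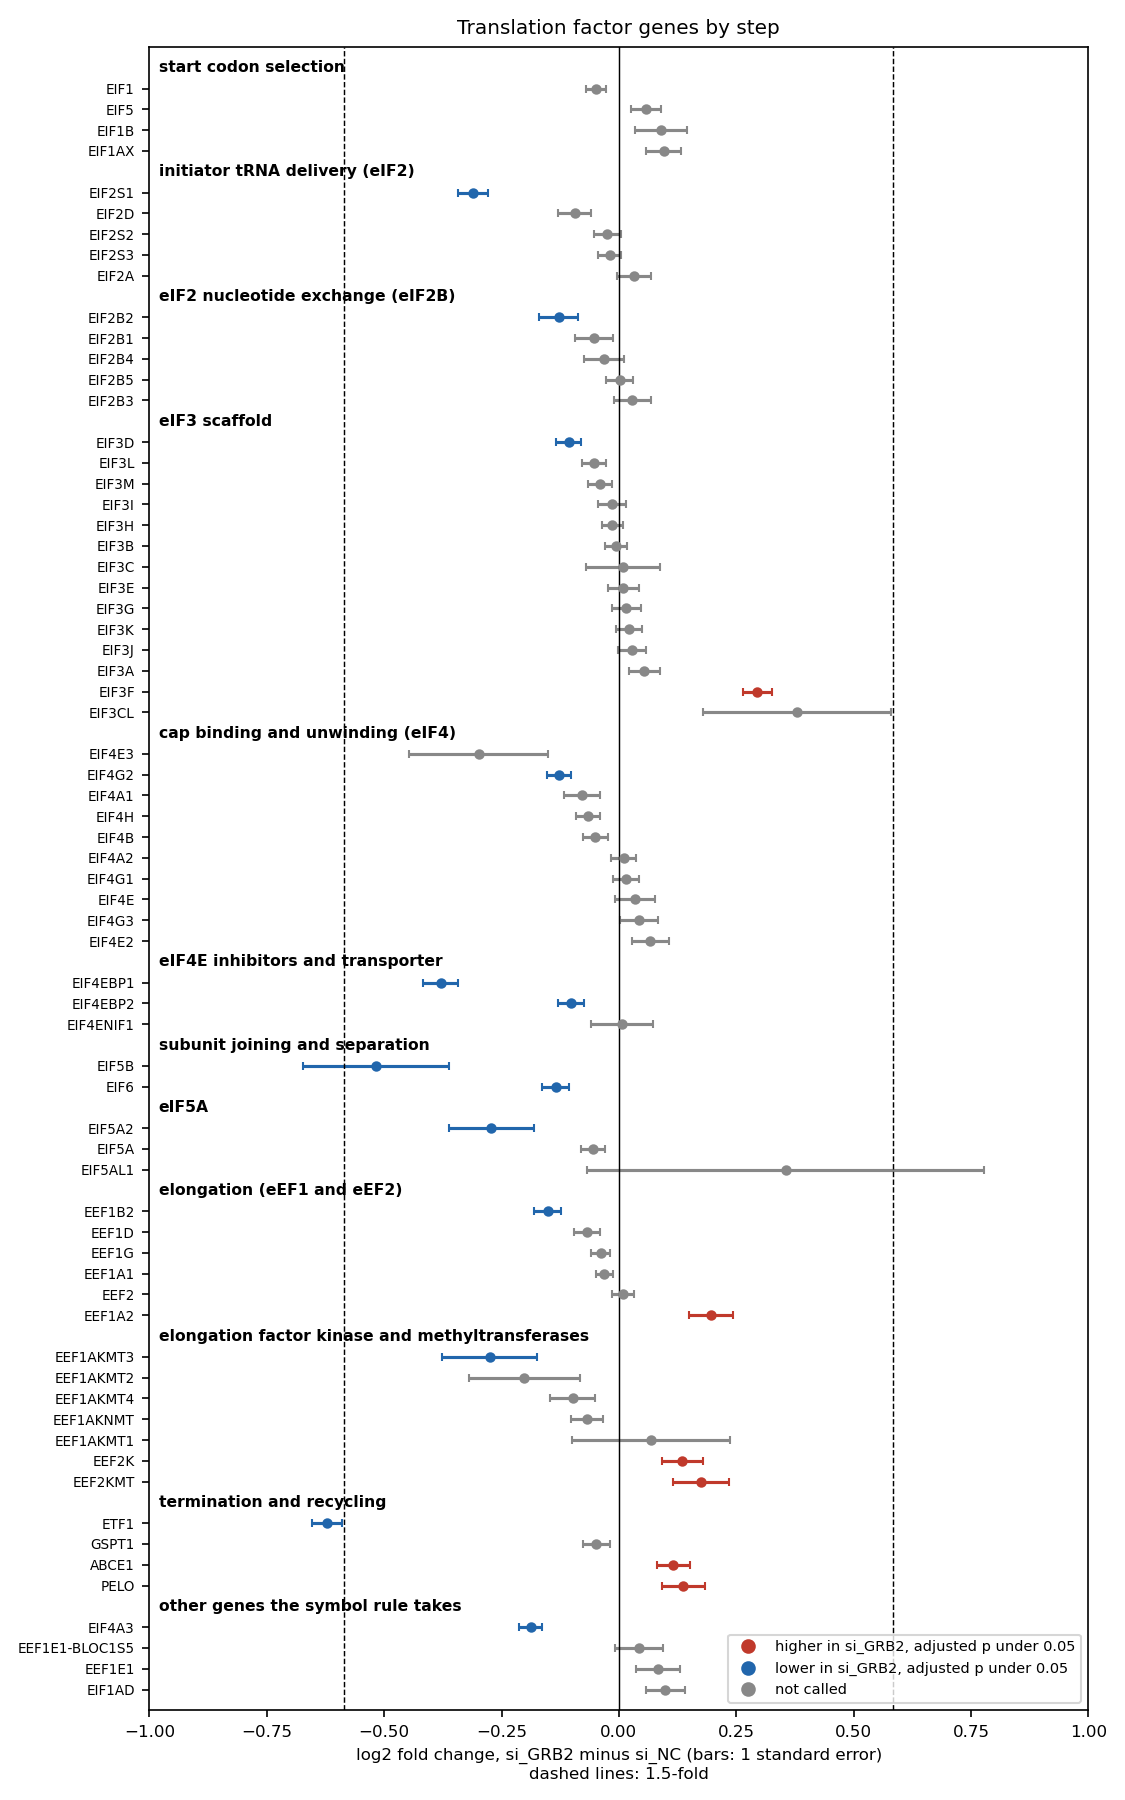
Log2 fold change of si_GRB2 against si_NC (horizontal axis) for the 67 members tested, grouped by step of translation. Bars are 1 standard error, red and blue points are genes called higher and lower, and dashed lines mark a fold change of 1.5. ETF1 lies past the dashed line at −0.62, while most members of eIF2B, eIF3 and eIF4 lie within 0.1 of zero.

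Many mRNAs of the translation machinery begin with a C followed by a run of pyrimidines, the terminal oligopyrimidine tract, through which mTOR signalling controls their translation. The first bases of some members are therefore shown from RefSeq on GRCh38.p14. The selection favours starts with such a tract, and the share over the members is given below. Called members such as EIF4G2, EIF5B and EIF4A3 have annotated starts without a tract and are not shown. Each line gives 10 bases before the annotated start and 20 from the start on, on the strand of the transcript, and capitals mark the first 5 transcribed bases.
EEF1A1 (chr6:73521013-73521042, minus): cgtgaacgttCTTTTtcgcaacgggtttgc
EEF2 (chr19:3985444-3985473, minus): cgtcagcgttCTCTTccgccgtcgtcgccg
EEF1B2 (chr2:206159885-206159914, plus): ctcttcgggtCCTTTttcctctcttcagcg
EIF3F (chr11:7987327-7987356, plus): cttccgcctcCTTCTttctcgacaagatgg
EIF3D (chr22:36529147-36529176, minus): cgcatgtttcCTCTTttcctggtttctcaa
EIF2S3 (chrX:24054946-24054975, plus): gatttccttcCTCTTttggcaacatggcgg
EIF2S1 (chr14:67360318-67360347, plus): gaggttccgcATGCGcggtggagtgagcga
ETF1 (chr5:138543217-138543246, minus): aggaagtgatGTCACaggccccatgtgagc

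The first 6 starts hold a C followed by 4 bases that are each C or T, and the starts of EIF2S1 and ETF1 do not. EEF1B2 and ETF1 each have another annotated start without it. The search was made at annotated starts only and on the strand of the transcript. Such a tract was at a start of 13 of the 56 members with an annotated start (23.2%). The share was 5.14% of 27305 RefSeq genes and 6.79% of 12990 protein-coding genes of the count table. Of the 12 tested members with a tract 25% were called, against 30.6% of all genes tested. These were EIF3F, which was higher, and EEF1B2 and EIF3D, which were lower, and the median log2 fold change of the 12 was −0.025. Among the 41 tested members with a start and no tract, 3 were higher and 9 were lower (29.3% called), with a median of −0.015. Both shares were near that of all genes tested and below the 35.85% of protein-coding genes tested. The method measures mRNA amount and not its translation.

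ETF1 encodes eRF1, the protein that reads all stop codons. The gene (ENSG00000120705.13) spans 138506095 to 138543236 of chromosome 5, minus strand, in GRCh38. Its mRNA had 167, 165 and 162 CPM in si_NC, against 104, 107 and 110.1 CPM in si_GRB2. The groups were far apart, and each si_GRB2 library was below every control. Mean CPM went from 165 ± 2.39 to 107 ± 2.99 (SD, n = 3), a decrease of 35.0%. This gave a log2 fold change of −0.62 ± 0.032 (SE, edgeR adjusted p = 7.45e-10). The deposited FPKM, which are scaled by gene length, fell with it from 29.1 ± 0.63 to 19.5 ± 0.985 (SD, n = 3). The change lies near the limit of 1.5-fold, and with library size alone as the scaling it was −0.57, inside the limit.

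The other genes of termination and recycling did not follow ETF1. GSPT1, the GTPase eRF3 that acts in a complex with eRF1, had 314, 322 and 303 CPM in si_NC and 304, 297 and 306 CPM in si_GRB2. Its groups overlapped, and the log2 fold change of −0.049 was not called (edgeR adjusted p = 0.232). ABCE1, the ATPase that splits the ribosome after release, had 149, 155 and 143 CPM against 162, 156 and 165 CPM. Its rise was small, at a log2 fold change of 0.12 ± 0.035 (SE, edgeR adjusted p = 0.0191). PELO, a relative of eRF1 that frees stalled ribosomes, had 33.6, 34.7 and 32.8 CPM against 37.0, 35.8 and 38.4 CPM, a log2 fold change of 0.14 ± 0.046 (SE, edgeR adjusted p = 0.0317). Both groups of ABCE1 and of PELO stayed apart, but by little. ABCE1 and PELO lost their call without si_NC replicate 1 or 3 or si_GRB2 replicate 1 or 3. Both also lost it in limma on log2(FPKM + 1) and on log2(FPKM + 0.1). PELO lost it further by DESeq2, with no filter on low counts and with a block on replicate number. This made 6 of 18 alternatives for ABCE1 and 9 of 18 for PELO. Over all single libraries left out, the log2 fold change was 0.079 to 0.14 for ABCE1 and 0.11 to 0.16 for PELO.

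**Figure D2:**
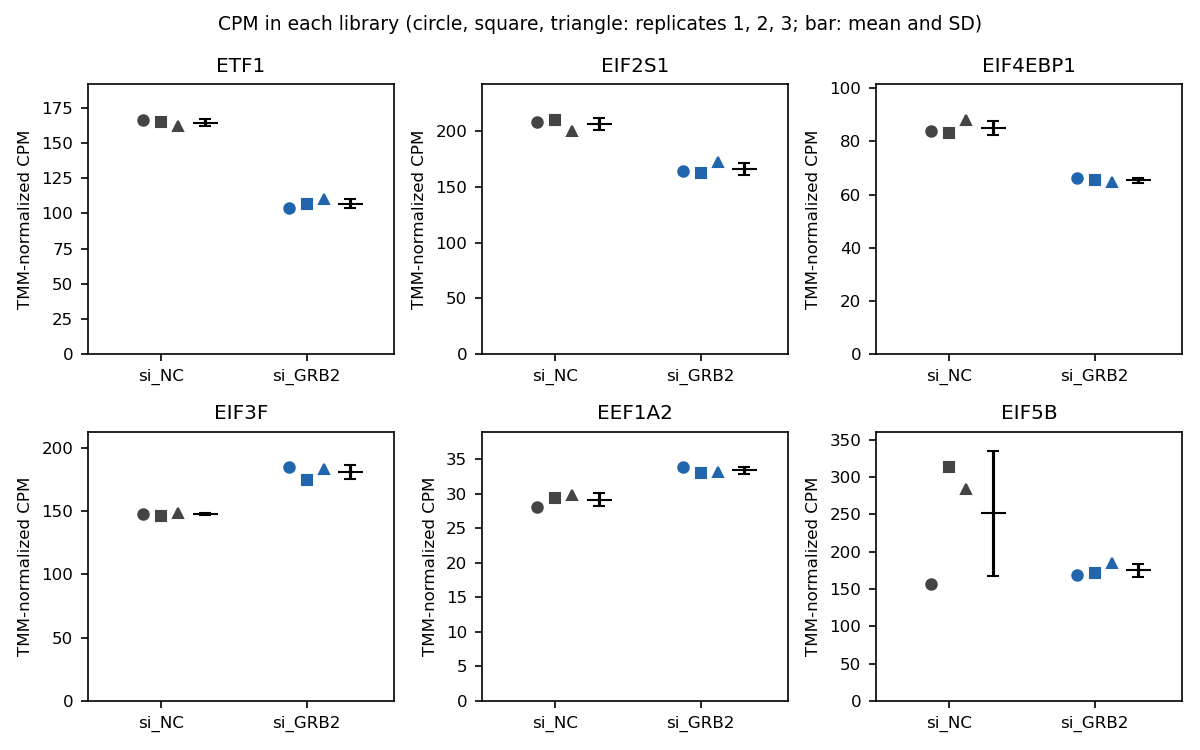
TMM-normalized CPM (vertical axis, from 0) of 6 members in each si_NC and si_GRB2 library. Circles, squares and triangles are replicates 1, 2 and 3, and the bars give the mean and SD. ETF1, EIF2S1 and EIF4EBP1 are lower and EIF3F and EEF1A2 higher in all 3 si_GRB2 libraries, while si_NC replicate 1 of EIF5B, at 157 CPM, lies below the si_GRB2 libraries.

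The eIF2 complex is a trimer of alpha, beta and gamma subunits, and phosphorylation of its alpha subunit lowers initiation under stress. EIF2S1, the alpha subunit, lies on the plus strand of chromosome 14 from 67360328 to 67386516 (ENSG00000134001.15). It had 209, 210.4 and 201 CPM in si_NC and 164, 163 and 173 CPM in si_GRB2. The 3 si_GRB2 libraries were all lower than the controls. The means were 207 ± 5.17 and 166 ± 5.44 CPM (SD, n = 3), a decrease of 19.4% (log2 fold change −0.31 ± 0.032, SE, edgeR adjusted p = 1.86e-06).

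The partner subunits of EIF2S1 were not called. EIF2S2, the beta subunit, had 216, 222 and 216 CPM against 212, 211 and 219 CPM, a log2 fold change of −0.024 (edgeR adjusted p = 0.582). EIF2S3, the gamma subunit that binds the initiator tRNA, had 345, 345 and 344 CPM against 336, 341 and 343 CPM, a log2 fold change of −0.019 (edgeR adjusted p = 0.62). The alpha subunit therefore differed in a complex whose other mRNAs moved by less than 0.03 log2 units. EIF2A and EIF2D, which can deliver initiator tRNA without eIF2, were not called either, at 0.032 and −0.094.

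eIF2B is the exchange factor that reloads eIF2 with GTP. Of its 5 subunits 1 was called, EIF2B2, the beta subunit, with 48.2, 49.1 and 51.3 CPM in si_NC and 45.7, 45.8 and 44.5 CPM in si_GRB2. This was a log2 fold change of −0.13 ± 0.041 (SE, edgeR adjusted p = 0.0266). The call was lost without si_NC replicate 3, or si_GRB2 replicate 2 or 3, by DESeq2, with library size alone and in all 3 fits of limma to FPKM, which is 8 of 18 alternatives. Over all of them its log2 fold change ran from −0.16 to −0.074. The catalytic subunit EIF2B5, the most abundant of the complex per length, was at 0.0017 (edgeR adjusted p = 0.976), and the others ran from −0.052 to 0.029.

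The genes of start codon selection were not called. EIF1 and its paralog EIF1B, which keep the ribosome scanning until a start codon is met, were at log2 fold changes of −0.049 and 0.09 (adjusted p = 0.115 and 0.25, edgeR). EIF1AX and EIF5 were at 0.095 and 0.058. Over all initiation steps, from start codon selection to subunit joining, 40 of 42 members were tested, with 1 higher, 6 lower and 33 not called. The shares called were 2.5% higher and 15% lower, 17.5% in all, against 15.2%, 15.5% and 30.6% of all genes tested. Among protein-coding genes tested these shares were 17.87%, 17.97% and 35.85%.

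eIF3 is the large scaffold that holds the small subunit and the mRNA together. Of its 14 genes, 1 was higher and 1 was lower. EIF3F, an MPN-domain subunit, lies on the plus strand of chromosome 11 from 7970251 to 8001862 (ENSG00000175390.15). It had 148, 147 and 148 CPM in si_NC and 185, 175 and 184 CPM in si_GRB2. Each si_GRB2 library was above all controls. The means were 148 ± 0.96 and 181 ± 5.54 CPM (SD, n = 3), an increase of 22.7% (log2 fold change 0.30 ± 0.031, SE, edgeR adjusted p = 2.05e-06). EIF3H, the other MPN-domain subunit, had 1378, 1401 and 1353 CPM against 1360.2, 1347 and 1385 CPM, and its log2 fold change was −0.014 (edgeR adjusted p = 0.698).

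EIF3D, a subunit that can bind the cap of some mRNAs, had 273, 281 and 283 CPM against 259.8, 259 and 259 CPM. Its log2 fold change was −0.11 ± 0.027 (SE, edgeR adjusted p = 0.00592), and the si_GRB2 libraries lay close together below the controls. EIF3D lost its call with library size alone, where it was at −0.056, and in all 3 fits of limma to FPKM. The remaining 11 subunits, leaving out EIF3CL, were within −0.053 and 0.054, and none was called. These included the core subunits EIF3A and EIF3B at 0.054 and −0.0062.

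EIF3CL, a near-identical copy of EIF3C, had the highest log2 fold change of the members at 0.38 but was not called (SE 0.2, edgeR adjusted p = 0.177). Its 8.5 CPM in si_GRB2 replicate 1 stood apart from 4.1 to 4.99 CPM in the other 5 libraries. EIF3C was at 0.0086. How reads are split between these copies is uncertain, and their sum was at 0.082 (edgeR adjusted p = 0.467).

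Of the 11 cap-binding and unwinding genes 10 were tested, EIF4G2 alone was called, and 8 were within 0.1 log2 units of zero. EIF4G2 encodes a relative of the eIF4G scaffold that lacks the eIF4E binding region and serves cap-independent initiation. It had 899, 933 and 910.4 CPM against 812, 846 and 854 CPM, with no overlap, and a log2 fold change of −0.13 ± 0.025 (SE, edgeR adjusted p = 0.00109). The cap-binding protein EIF4E was at 0.034, its relative EIF4E2 at 0.067 and the scaffold EIF4G1 at 0.015, and none of them was called. The helicase EIF4A2 was at 0.01 (edgeR adjusted p = 0.823). EIF4E3, a cap-binding relative of EIF4E with few reads, had 5.88, 5.06 and 4.1 CPM against 3.7, 4.3 and 4.23 CPM. At −0.30 ± 0.15 (SE, edgeR adjusted p = 0.147) its estimate was the farthest from zero in this step, but its groups overlapped and it was not called. Without si_NC replicate 3 EIF4E3 was at −0.43 and was called (edgeR adjusted p = 0.0276).

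The values of the helicase EIF4A1 depend on how overlapping genes were counted. Only 9025 reads over 6 libraries were listed under EIF4A1, while 123790 were listed under SENP3-EIF4A1, a readthrough gene on the same strand that shares 1468 exonic bases with it. EIF4A1 was at a log2 fold change of −0.079 and was not called (edgeR adjusted p = 0.151). SENP3-EIF4A1 was at −0.093 and was called (adjusted p = 0.0068), and the sum of both was at −0.092 (edgeR adjusted p = 0.00638). SENP3, which shares the upstream end of the readthrough gene, was at 0.028.

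The eIF4E-binding proteins hold eIF4E away from eIF4G until mTOR phosphorylates them. EIF4EBP1 (ENSG00000187840.5) had 83.9, 83.2 and 88.2 CPM in si_NC and 66.4, 65.4 and 64.6 CPM in si_GRB2. The si_GRB2 libraries agreed closely and lay below all controls. The means were 85.1 ± 2.73 and 65.4 ± 0.907 CPM (SD, n = 3), a decrease of 23.1% (log2 fold change −0.38 ± 0.037, SE, edgeR adjusted p = 1.09e-06).

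EIF4EBP2 had 276, 279 and 281 CPM against 253, 265 and 260.0 CPM, a smaller decrease with a log2 fold change of −0.10 ± 0.027 (SE, edgeR adjusted p = 0.00941). With library size alone as the scaling, and in all 3 fits of limma to FPKM, EIF4EBP2 was no longer called. EIF4EBP3 had 1 to 6 reads per library and was not tested. EIF4ENIF1, which carries eIF4E into the nucleus, was at 0.0069 (edgeR adjusted p = 0.956).

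**Figure D3:**
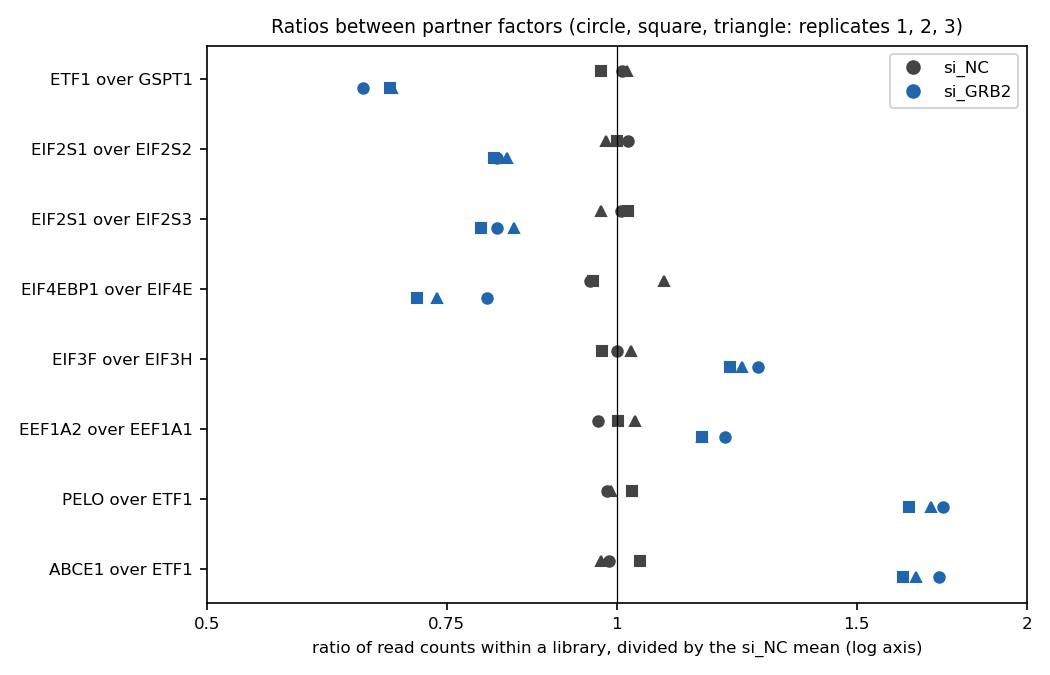
Ratio of read counts between 2 members within each library, divided by the mean ratio of the si_NC libraries (horizontal log axis). Circles, squares and triangles are replicates 1, 2 and 3 of si_NC (grey) and si_GRB2 (blue), and the groups do not overlap in any of the 8 pairs. ETF1 fell by 32.8% relative to GSPT1, and PELO rose by 69.3% relative to ETF1.

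Ratios between partner genes within a library do not depend on the scaling between libraries. They were taken for 14 pairs chosen after the values were seen, and are given with no test. The ratio of ETF1 to GSPT1 reads was 0.526 ± 0.0122 in si_NC and 0.354 ± 0.00976 in si_GRB2 (SD, n = 3). EIF2S1 changed by −18.0% relative to EIF2S2 and by −18.3% relative to EIF2S3. EIF4EBP1 changed by −24.8% relative to EIF4E, the protein that its product inhibits, and by −17.4% relative to EIF4EBP2. EIF3F changed by 23.9% relative to EIF3H. The ratios of ABCE1 and PELO to ETF1 were higher by 66.8% and 69.3%, in which most of the change is that of ETF1.

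EIF5B, the GTPase that joins the large subunit, was called lower, but its control libraries were uneven. It lies on the plus strand of chromosome 2 from 99337371 to 99401326 (ENSG00000158417.11). The si_NC libraries had 157, 314 and 284 CPM and the si_GRB2 libraries 170, 171 and 185 CPM. Replicate 1 of si_NC thus lay below all si_GRB2 libraries, and replicates 2 and 3 above them. The reads were 4399, 7994 and 7957 against 4266, 4707 and 4691, and the deposited FPKM of 15.5, 31.7 and 30.1 against 17.3, 18.4 and 19.7 showed the same pattern. The log2 fold change was −0.52 ± 0.16 (SE, edgeR adjusted p = 0.0185). Without si_NC replicate 1 it was −0.78 (edgeR adjusted p = 1.78e-10), past the 1.5-fold limit. Without si_NC replicate 2 it was −0.34 (edgeR adjusted p = 0.147), and DESeq2 gave an adjusted p of 0.169 with all libraries. The call was also lost without any single si_GRB2 library (adjusted p = 0.054 to 0.076, edgeR). The robust fit and all 3 fits of limma to FPKM lost it too, which makes 9 of 18 alternatives. With a block on replicate number EIF5B was at −0.47 and kept its call (edgeR adjusted p = 2.87e-07).

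Among 7424 genes with at least 3000 reads over the 6 libraries, EIF5B was the 1 gene in which si_NC replicate 1 lay 0.5 log2 units or more below the mean of replicates 2 and 3. Its gap was −0.93, and the next was −0.39 in LINC00963. A larger range within si_NC was found for 16 of these genes. The median range among the 60 members with that many reads was 0.058 log2 units, and after EIF5B the largest was 0.28 in EIF4ENIF1. The genes that overlap EIF5B on the opposite strand, TXNDC9 and REV1, were not called (adjusted p = 0.564 and 0.357, edgeR). The part of library preparation in this gap was not tested.

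**Figure D4:**
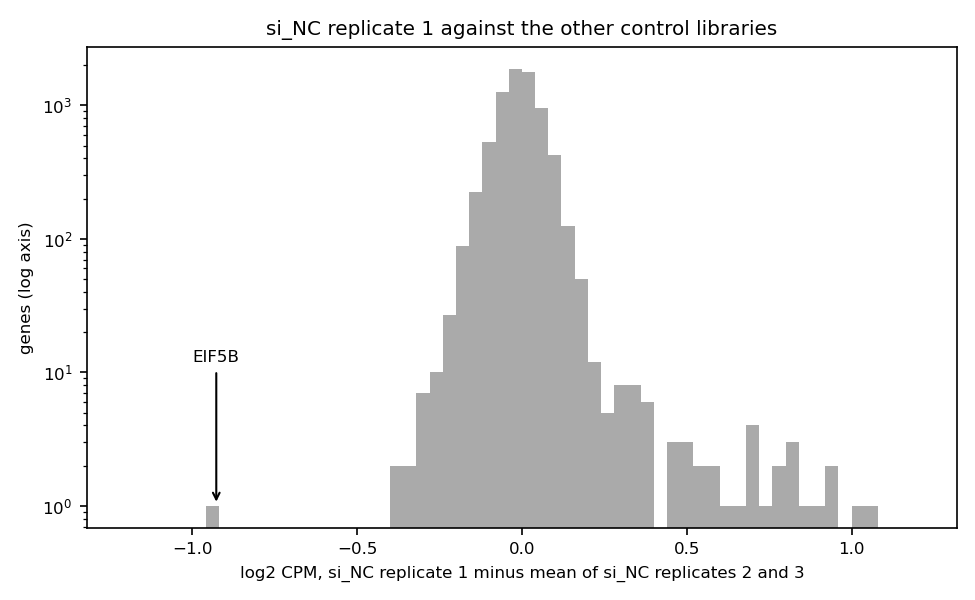
Log2 CPM of si_NC replicate 1 minus the mean of si_NC replicates 2 and 3 (horizontal axis) for 7424 genes with at least 3000 reads, with the number of genes on a log axis. EIF5B lies alone at −0.93, and the next lowest gene is at −0.39.

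EIF6 keeps the subunits apart until the large subunit is mature. It had 242, 249 and 249 CPM against 226, 228 and 219 CPM, a log2 fold change of −0.13 ± 0.028 (SE, edgeR adjusted p = 0.0016). A gene on the same strand, RP4-614O4.11, overlaps it, holds 65.6% as many reads and was at −0.15 (edgeR adjusted p = 0.00192). How reads were shared between them is uncertain.

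Of the 6 elongation factor genes, 1 was higher and 1 was lower. EEF1A1, which carries aminoacyl-tRNA in nearly all cells, had 6114, 6199 and 6101 CPM against 5942, 6034 and 6052 CPM. The log2 fold change of −0.031 was not called (edgeR adjusted p = 0.213). Its paralog EEF1A2, normally found in muscle and neurons and raised in some tumours, had 28.1, 29.4 and 29.8 CPM against 33.9, 33.0 and 33.1 CPM. EEF1A2 was higher in all 3 si_GRB2 libraries, with a log2 fold change of 0.20 ± 0.046 (SE, edgeR adjusted p = 0.00388).

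EEF1A2 reads were 0.00474 of EEF1A1 reads in si_NC and 0.00555 in si_GRB2, so the paralog stayed a small fraction of the eEF1A reads. EEF1B2, the exchange factor that recharges eEF1A with GTP, had 437, 464 and 435 CPM against 404, 394 and 404 CPM. Its log2 fold change was −0.15 ± 0.029 (SE, edgeR adjusted p = 0.000718). The other subunits of the exchange complex, EEF1G and EEF1D, were at −0.039 and −0.068 and were not called. EEF2, the translocase, had 1715, 1779 and 1779 CPM against 1786, 1787 and 1732 CPM and was at 0.0087 (edgeR adjusted p = 0.825).

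The enzymes that modify the elongation factors moved in both directions. EEF2K, the kinase that halts eEF2, had 35.3, 36.5 and 36.4 CPM against 40.9, 39.7 and 38.2 CPM, a log2 fold change of 0.14 ± 0.044 (SE, edgeR adjusted p = 0.0286). The call of EEF2K was lost without any single library other than si_GRB2 replicate 3, and its log2 fold change over all 6 such fits was 0.11 to 0.16. DESeq2, no filter on low counts, the replicate block and all 3 fits of limma to FPKM lost the call of EEF2K too. It was lost in 11 of 18 alternatives. EEF2KMT, which methylates eEF2, was at 0.17 (edgeR adjusted p = 0.0342). It lost its call without si_NC replicate 2 or 3 or si_GRB2 replicate 2 or 3, at 0.10 to 0.22 over all single libraries left out. With DESeq2 and limma on log2(FPKM + 1) and log2(FPKM + 0.1), EEF2KMT lost its call in 7 of 18 alternatives. ALG1 on the opposite strand shares 983 exonic bases with it and was at 0.10. EEF1AKMT3, which methylates eEF1A, was at −0.27 (edgeR adjusted p = 0.0497), and lost its call in 12 of 18 alternatives, among them any single library left out other than si_NC replicate 1. It overlaps RP11-571M6.15 on the same strand, which held 807% as many reads and was at −0.21. EEF1AKMT4, the most abundant of the group per length, was at −0.098 and was not called.

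eIF5A carries hypusine, a modified lysine that it needs for its function. EIF5A had 725, 762 and 757 CPM against 726, 722 and 710.4 CPM and was not called (log2 fold change −0.055, adjusted p = 0.114, edgeR). Its paralog EIF5A2, amplified in some cancers, had 9.34, 8.83 and 9.48 CPM against 7.47, 7.32 and 8.14 CPM. The groups of EIF5A2 did not overlap, and its log2 fold change was −0.27 ± 0.091 (SE, edgeR adjusted p = 0.032). EIF5A2 lost its call in 10 of 18 alternatives, with −0.32 to −0.12 over all of them. These were si_NC replicate 1 or 3 or si_GRB2 replicate 1 or 2 left out, DESeq2, library size alone, no filter on low counts and all 3 fits of limma to FPKM. EIF5AL1, a copy with 4 to 16 reads per library, was at 0.36 with a standard error of 0.42.

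The symbol rule also took genes whose main role lies elsewhere. EIF4A3 is a helicase of the exon junction complex, which marks spliced mRNA. It had 411, 410.2 and 410.4 CPM against 359, 357 and 365 CPM, a log2 fold change of −0.19 ± 0.025 (SE, edgeR adjusted p = 2.36e-05). The controls were nearly equal and every si_GRB2 library was lower. EEF1E1, a scaffold of the tRNA synthetase complex, its readthrough with BLOC1S5 and EIF1AD were not called, at 0.083, 0.044 and 0.099.

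A list of 30 translation genes outside the rule covered poly(A)-binding proteins, release and rescue partners, eIF4E kinases, mTOR signalling and hypusine enzymes. All 30 were tested, with 7 higher, 3 lower and 20 not called. The share called was 33.3%, against 30.6% of all genes and 35.85% of protein-coding genes tested. The called genes are named here because they were called. MKNK2, a kinase of eIF4E, had 85.3, 86.8 and 91.4 CPM against 124, 130 and 118 CPM, and its log2 fold change of 0.49 was past those of all others in the list (SE 0.04, edgeR adjusted p = 1.5e-07). The other eIF4E kinase, MKNK1, was at −0.12 and was not called.

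HBS1L, the GTPase partner of PELO, had 42.8, 44.2 and 43.9 CPM against 50.03, 53.3 and 49.3 CPM, at 0.22 (edgeR adjusted p = 0.000836). NEMF, which acts on stalled large subunits, was at 0.17 (edgeR adjusted p = 0.0179), and lost its call without si_NC replicate 3 or si_GRB2 replicate 2 or 3 (0.10 to 0.20 over all single libraries left out). DENR, which recycles the small subunit, was at 0.22 (adjusted p = 0.000593), while its partner MCTS1 was at −0.093 and was not called (edgeR adjusted p = 0.0655). PABPC1 was at 0.092, PAIP1 at 0.13 and LARP1, which binds terminal oligopyrimidine mRNAs, at 0.087, all called higher (edgeR adjusted p = 0.00658, 0.0308 and 0.0221). PAIP1 lost its call without si_NC replicate 2 or 3 or si_GRB2 replicate 2 or 3 (0.092 to 0.15 over all single libraries left out). LARP1 lost its call without si_NC replicate 1 or 2 or si_GRB2 replicate 2 or 3 (0.067 to 0.11). Over all 18 alternatives NEMF lost its call in 5, PAIP1 in 7, among them DESeq2, and LARP1 in 8, among them the replicate block. PABPC1 lost its call in 3, HBS1L in 2 and DENR in 1, all of them fits of limma to FPKM.

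The genes called lower were LARP4, a poly(A) binding protein that stabilizes mRNA, at −0.34, EEFSEC, the elongation factor for selenocysteine, at −0.30, and PDCD4, an inhibitor of eIF4A, at −0.24 (adjusted p = 1.88e-06, 0.000533 and 0.00144, edgeR). LARP4 had 82.7, 83.0 and 83.5 CPM against 65.7, 64.9 and 66.6 CPM. PDCD4 lost its call in 2 of 18 alternatives, both of them fits of limma to FPKM. MTOR, RPTOR, RPS6KB1 and RPS6KB2 were not called, at 0.065, 0.04, 0.019 and 0.058. The hypusine enzymes DHPS and DOHH were not called, at 0.19 and 0.078.

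Levels between members were compared per length. By the deposited FPKM, the highest in si_NC were EEF1G at 676 ± 34.1, EEF1A1 at 490.0 ± 16.7, EEF2 at 351 ± 18.8, EIF1 at 266 ± 9.79 and EIF5A at 224 ± 12.7 FPKM (SD, n = 3). The elongation genes EEF1G, EEF1A1 and EEF2 thus led, and EIF5A stood above EEF1B2 at 187 ± 8.01 and EIF3H at 172 ± 4.55 FPKM. By this measure the elongation genes EEF1D and EEF1A2 were lower, at 41.7 ± 2.9 and 4.85 ± 0.32 FPKM, but the place of EEF1D depends on the length used. ETF1 at 29.1 ± 0.63 and GSPT1 at 31.2 ± 0.738 FPKM were close in si_NC. In si_GRB2 GSPT1 was 31.1 ± 0.747 FPKM and ETF1 19.5 ± 0.985 FPKM.

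The order depends on the length used. The FPKM follow the length of all annotated exons of a gene joined together, which is long where a gene has rare long transcripts. With reads divided by the length of the canonical transcript and by library size (RPKM), EEF1A1 came first at 1716 ± 7.01 and EEF1G second at 1508 ± 19.5 RPKM (SD, n = 3). EIF3E was listed at 2.08 ± 0.0693 FPKM with 37.8 kb of joined exons, but had 47.6 ± 0.814 RPKM over its canonical transcript of 2.02 kb, which moved it from place 61 to place 30 of 70. EIF4E2 moved from place 49 to 25, EIF3I from 35 to 14 and EEF1D from 23 to 10. In EIF4A1 both lengths gave low values, 8.97 FPKM against 50.5 FPKM for EIF4A2, with most reads over EIF4A1 listed under the readthrough gene.

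**Figure D5:**
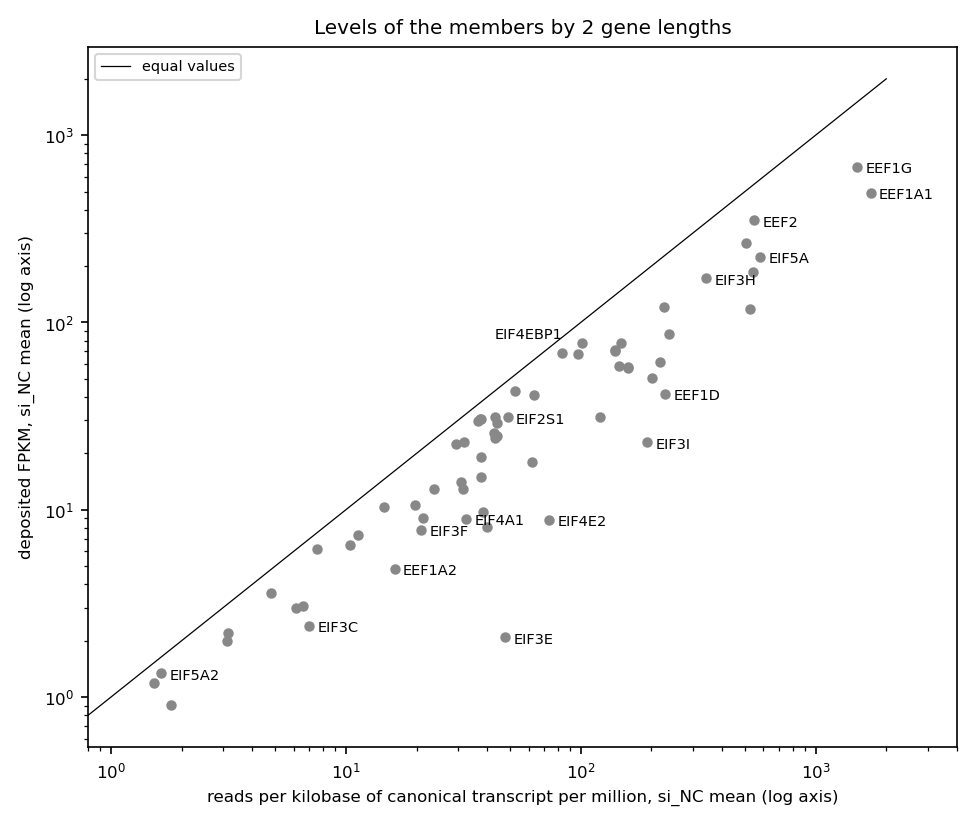
Mean deposited FPKM in si_NC (vertical log axis) against RPKM over the canonical transcript (horizontal log axis) for the 65 members above 0.5 FPKM. The line marks equal values, and all members lie below it, also those with equal lengths. EIF3E, at 2.08 FPKM against 47.6 by canonical transcript, lies farthest below it.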

How the data were processed

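RNA of 3 si_NC and 3 si_GRB2 libraries of SK-BR-3 cells was sequenced as strand-specific paired reads, grouped here by the descriptions in the labels. The authors trimmed the reads, aligned them to GRCh38 with HISAT2 allowing 4 mismatches, and used uniquely mapped reads only. Raw read counts and FPKM, both per gene, are the values the authors deposited. The counting tool, its use of strand and the annotation are not given in the sources used here. Of the gene identifiers, 99.7% were found in GENCODE 44. The implied FPKM lengths were a constant multiple of GENCODE exon-union lengths (median ratio 1.225, quartiles 1.224 and 1.226, over 10071 genes), so longer annotated exons lower an FPKM.

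The counts were scaled by TMM in edgeR 4.0.16 (R 4.3.3), and 15801 genes passed filterByExpr. Groups were compared by the quasi-likelihood test without covariates and p-values adjusted by Benjamini-Hochberg over these genes. CPM are TMM-normalized. Standard errors (SE) were derived from each estimate and its F statistic. Intervals are the estimate plus or minus 1.96 standard errors, which is narrower than a 95% interval of the quasi-likelihood test. The common coefficient of variation was 3.75%. On simulated counts for 15801 genes in this comparison, 93% of 100 genes changed 2-fold and 54% of 100 genes changed 1.2-fold were called, and 5.77% of calls were unchanged genes. Every simulated gene had the common coefficient of variation, and no further genes were changed. In the data genes differ in their spread and 30.6% were called, so these shares need not hold there.

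Members and lists were chosen with earlier results of these data known. Named genes are GRB2, members past both limits, up to 10 called members per direction with the smallest adjusted p, the member with the highest FPKM of each step, and paralog pairs. The ratios, the genes overlapping members, the called genes among the 30 outside the rule, and members named beyond this were chosen after their values were seen. Alternatives were DESeq2 1.42.0, other scalings, filters on low counts, a robust fit, glmTreat, a block on replicate number, limma 3.58.1 on log2(FPKM + 1) or log2(FPKM + 0.1), and each library left out. Sums of overlapping genes and canonical lengths were added after seeing the data. Starts are from RefSeq on GRCh38.p14. No siRNA sequence, splicing or protein was analysed here.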

Additional observations from a re-analysis of the deposited data

How the results depend on the processing

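ETF1, EIF4EBP1, EIF2S1 and EIF3F kept their call and direction under all 18 alternatives. These 18 take in the sums of overlapping genes and leave out glmTreat, which is given below. The log2 fold change of ETF1 ran from −0.64 to −0.56. EIF4G2, EIF6 and EEF1B2 lost their call in all 3 fits of limma to FPKM, and EIF4A3 and EEF1A2 in 2 of them. In 1200 refits of single members 1082 gave the same call, 93 lost it and 25 gained it, and no called member changed sign. DESeq2 called 13 members, 12 of them among the 19, with 3 higher. Library size alone gave 14 higher and 8 lower, 12 of the 30 listed genes higher and no member past both limits (0), and it moved the median of all genes from 0.0019 to 0.052 and of the members to 0.036. glmTreat, which tests against the fold limit, left 0 members and 56 genes. limma on log2(FPKM + 1) called 4 members (1 higher, 3 lower), 0 past both limits, 3 listed genes (1 higher) and 1400 genes (834 higher, 566 lower, 79 past both limits). With a pseudocount of 0.1 it called 4 members (1 higher, 3 lower), 0 past both limits, 4 listed genes (2 higher) and 1534 genes (927 higher, 607 lower, 144 past both limits). With a mean of at least 1 FPKM it called 9 members (4 lower), 0 past both limits, and 2689 genes (987 lower, 96 past both limits). The cause of these differences was not tested. With each library left out, 13 to 17 members were called, 2 to 5 of them higher, 4 to 7 listed genes were higher, and 1 to 2 members passed both limits, EIF5B being the one added without si_NC replicate 1. The lowest count, 2 higher, was without si_NC replicate 3.

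The correlations of deviations between libraries of equal replicate number were 0.232, −0.0948 and 0.0804. Between unequal numbers they ran from −0.282 to 0.228. So few values cannot settle whether the replicate numbers pair the libraries. With the replicate block 17 members were called, EEF2K and PELO being lost. Genes with few reads, such as EIF5AL1 and EEF1AKMT1, have wide errors.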
